A study of Mus musculus with 6 samples.

Results

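The genes described here encode elastin, the fibrillins, the fibulins and the proteins that sit on microfibrils in the wall of mesenteric arteries. They were chosen by gene symbol, as every probe set whose single symbol in the array annotation was one of Eln, Fbn1, Fbn2, Fbln1, Fbln2, Fbln5, Efemp2, Mfap2, Mfap5 and Emilin1. Of these 10 genes, 8 were matched, by 17 of the 45037 probe sets; Fbn1 and Efemp2 are not analysed here. RNA came from whole mesenteric arteries, which branch to the intestine, with 1 array per mouse; the labels describe them as freed of fat and lymph tissue. The 3 control mice (animals 30, 74 and 75) carried loxP-flanked beta1 integrin and no Cre. The 3 knockout mice (72, 73 and 86) carried the same floxed alleles and a Cre named for SM22alpha, a gene of smooth muscle. All 6 mice, controls included, were of a mixed background with FVB, SVJ129 and C57BL/6 among its sources and were given tamoxifen daily, 1 mg each time over 14 days that began at an age of 5 weeks. Tissue was taken at 7 weeks. The controls lacked Cre, so the presence of Cre and the loss of the integrin cannot be told apart.

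Elastic fibres give arteries their recoil. They have a core of crosslinked elastin laid on a scaffold of microfibrils, which are polymers of fibrillin decorated with the microfibril-associated glycoproteins MAGP-1 (Mfap2) and MAGP-2 (Mfap5). Fibulins and emilin-1 link elastin to microfibrils, to the crosslinking enzymes and to cells, and integrins are among the cell receptors that bind these proteins. Microfibrils also hold latent TGF-beta in the matrix.

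Both MAGP genes rose in knockout arteries, Mfap2 to 2.55 times and Mfap5 to 2.11 times the control level. Elastin and the fibulins 2 and 5, as represented by their brightest probe sets, stood at 1.20 to 1.34 times the control level without passing the test. Fbln1 and Emilin1 differed by less than the spread among the arrays of 1 group. Fbn2 had low signal throughout. Of the 7 genes above the filter on low signal, 2 were called higher and 0 lower by limma at an adjusted p under 0.05, beside 1.93% of all 11378 genes called higher and 0.694% called lower. At an unadjusted p under 0.05 there were 3 of the 7, beside 21.4% of all genes. In 3 of the 7, Mfap2, Mfap5 and Fbln2, every knockout array exceeded every control array, beside 12.9% of all genes. The median difference of the 7 genes was 0.37 on the log2 scale, beside -0.05 over all genes tested, and 6 of the 7 lay above 0, beside 42.9% of all genes. The same number lay above 0 with median centring and with no normalization between arrays.

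In the arrays as a whole, median intensities lay between 62.8 and 72.6, and the labels do not give scan or extraction batches. The targeted gene Itgb1 stood at 11.80, 11.04 and 11.20 on the log2 scale in controls 30, 74 and 75 and at 10.51, 10.56 and 10.76 in knockouts 72, 73 and 86, with no overlap. This left 60.1% of the control level (95% confidence interval 42.1 to 85.8; limma adjusted p = 0.129, or 0.0329 with array weights). With 1 array left out the limma adjusted p of Itgb1 was 0.0970 to 0.294. Array weights, given here and below where they changed a call, called 1197 genes in all, beside 299 without them. Tagln, the gene of SM22alpha, differed by -0.33 (adjusted p = 0.235). Xist was at 11.83 in knockout 86 and at 5.29 to 6.09 in the other 5 arrays, so knockout 86 differed in sex from the rest. All 9 smooth muscle markers were above the filter, whereas 0 of 8 mesothelial markers were, and of 6 lymphocyte markers on the array all except Ptprc were below it. All 6 white adipocyte markers on the array were above the filter too. Adipoq, the gene of adiponectin, stood at 11.31, 13.53 and 12.91 in controls 30, 74 and 75 and at 12.64, 12.62 and 11.63 in knockouts 72, 73 and 86, and the groups overlapped. In whole arteries, fewer cells of a type and less RNA per cell cannot be told apart.

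Mfap2 encodes MAGP-1, a small glycoprotein bound along microfibrils. Its log2 values were 7.36, 7.92 and 8.18 in controls 30, 74 and 75 and 9.02, 9.55 and 8.95 in knockouts 72, 73 and 86. Every knockout array lay above every control array, and knockout 73 was the highest. In deposited intensities the controls ran from 162 to 281 and the knockouts from 510 to 748. The means were 7.82 ± 0.42 (SD, n = 3) and 9.17 ± 0.33 (SD, n = 3). The difference was 1.35 (SE 0.26, 95% confidence interval 0.74 to 1.96), a 2.55-fold rise with a limma adjusted p of 0.0478. That value lies just inside the threshold, and in none of the 6 fits of 5 arrays did Mfap2 pass (adjusted p 0.0750 to 0.146, differences 1.12 to 1.53). A second Mfap2 probe set, marked in the array's nomenclature as sharing probes with similar sequences, gave 7.12, 7.61 and 7.88 in the controls and 8.63, 8.99 and 8.72 in the knockouts. Its groups were likewise apart, with a difference of 1.24 (SE 0.22).

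For Mfap2, the 1 called gene with an entry in the RefSeq promoter table (GRCm38.p6), the 250 bases before its outermost start are shown because the gene changed between the groups. They lie at chr4:141010174-141010423 on the plus strand, and capitals mark matches, on either strand, to the motifs searched.

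Mfap2 upstream: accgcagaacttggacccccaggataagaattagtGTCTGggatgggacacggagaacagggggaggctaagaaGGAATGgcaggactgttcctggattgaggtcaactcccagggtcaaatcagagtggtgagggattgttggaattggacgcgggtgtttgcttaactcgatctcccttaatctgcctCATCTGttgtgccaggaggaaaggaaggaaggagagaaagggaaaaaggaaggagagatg

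The window held 1 match to CAGAC, the core of the SMAD-binding element, found in 42.2% of all 32841 windows of this length. It also held 1 match to GGAATG, the core of TEAD sites (12.6% of windows), and 1 E-box, CANNTG (66.2%). There was no match to the TATA box TATAAA, the GC box GGGCGG, the AP-1 motif TGANTCA, the palindrome GTCTAGAC or the CArG box of serum response factor. These are found in 12.4%, 32.7%, 6.75%, 0.167% and 1.47% of windows. The table holds another Mfap2 start, whose window at chr4:141010431-141010680 differed, with 2 GC boxes and no match to the other motifs. A match is only a description of these letters.

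Mfap5 encodes MAGP-2, the other MAGP, which carries an integrin-binding motif. Its values were 10.05, 10.44 and 10.10 in controls 30, 74 and 75 and 11.31, 11.39 and 11.12 in knockouts 72, 73 and 86. The knockout arrays lay close together, all above the highest control. The means were 10.19 ± 0.21 (SD, n = 3) and 11.27 ± 0.14 (SD, n = 3), and the difference was 1.08 (SE 0.16, 95% confidence interval 0.71 to 1.45), 2.11-fold (limma adjusted p = 0.0206). Mfap5 stayed past the threshold without control 74 (adjusted p = 0.0217) and lost its call without any 1 of the other arrays, with a highest adjusted p of 0.111 without knockout 72. Its other probe set stood at 9.20, 9.46 and 8.42 in controls and at 9.99, 10.04 and 9.96 in knockouts, where the groups did not overlap and the difference was 0.97 (SE 0.27). Without knockout 86, the array that differed in sex, Mfap5 differed by 1.16 and Mfap2 by 1.46, both not past the threshold (limma adjusted p = 0.0737 and 0.117).

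**Figure D1:**
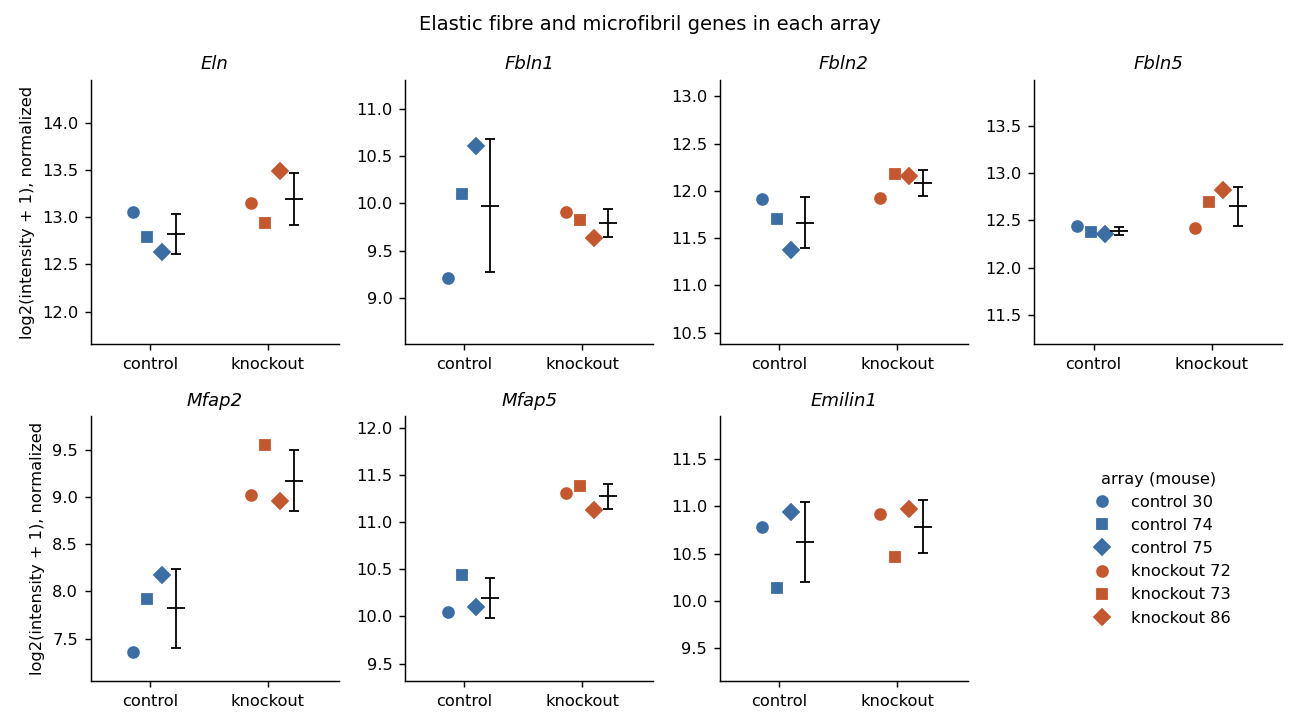
Normalized log2(intensity + 1) of the 7 genes above the filter, in each of the 3 control (blue) and 3 knockout (orange) arrays; black bars give the group mean and SD, and every panel spans the same log2 range. The lowest knockout lies 0.78 above the highest control for Mfap2 and 0.68 for Mfap5, while Eln, Fbln1, Fbln5 and Emilin1 overlap.

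Elastin, the polymer of the fibre core, is represented by a probe set near the top of the intensity range. Eln stood at 13.05, 12.79 and 12.63 in controls 30, 74 and 75 and at 13.15, 12.94 and 13.48 in knockouts 72, 73 and 86. Control 30 lay above knockout 73, so the groups overlapped. The difference was 0.37 (SE 0.19, 95% confidence interval -0.08 to 0.81; limma adjusted p = 0.308), which leaves room for a rise of up to 1.76-fold. Without knockout 86, the highest array, it was 0.22.

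The other Eln probe set, annotated to the same accession, gave a larger difference. Its values were 10.02, 9.23 and 8.78 in controls 30, 74 and 75 and 10.13, 10.72 and 11.08 in knockouts 72, 73 and 86. Here the groups did not overlap, although control 30 and knockout 72 were close. The difference was 1.30 (SE 0.37), 2.46-fold, and did not pass when all 19252 named probe sets above the filter were tested (limma adjusted p = 0.143). The Eln probe sets thus differed by 0.93 in their knockout minus control difference, with an exact permutation p of 0.1, the smallest that 3 arrays against 3 allow. Averaging both probe sets gave a difference of 0.83 for the gene, also not past the threshold (adjusted p = 0.144). The size of the Eln difference therefore depended on which probe set was read.

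Among the fibulins, Fbln2 and Fbln5 had higher means in knockout arteries, without passing the test, and Fbln1 varied most among controls. Fbln2, which encodes a fibulin of basement membranes and the elastic lamina, stood at 11.91, 11.70 and 11.38 in controls 30, 74 and 75 and at 11.93, 12.18 and 12.16 in knockouts 72, 73 and 86. The lowest knockout lay only just above the highest control. The difference was 0.42 (SE 0.17), 1.34-fold (limma adjusted p = 0.218). A dim Fbln2 probe set below the filter ran the other way, at 5.68, 5.65 and 6.35 in controls and 5.26, 4.54 and 5.21 in knockouts.

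Fbln5 encodes a fibulin that brings elastin to microfibrils and binds integrins. It stood at 12.44, 12.37 and 12.35 in controls 30, 74 and 75 and at 12.42, 12.70 and 12.82 in knockouts 72, 73 and 86. The controls were nearly equal, and knockout 72 lay among them. The difference was 0.26 (SE 0.14, 95% confidence interval -0.08 to 0.60; limma adjusted p = 0.344). A second, dim probe set of Fbln5 below the filter differed by 0.75 in the fit of all probe sets (adjusted p = 0.350).

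Fbln1 encodes a fibulin of elastic fibres and basement membranes. It ran from 9.21 in control 30 through 10.10 in control 74 to 10.60 in control 75, and stood at 9.91, 9.83 and 9.63 in knockouts 72, 73 and 86. All knockout values fell inside the control range. The difference was -0.18 (SE 0.33, 95% confidence interval -0.98 to 0.61; limma adjusted p = 0.786), and without control 75 it turned to 0.13. A second probe set above the filter repeated the control pattern, at 8.16, 9.48 and 9.54 in controls 30, 74 and 75, and differed by -0.24. Its dim probe set below the filter differed by -0.61.

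Emilin1 encodes a glycoprotein at the boundary of elastin and microfibrils. It stood at 10.78, 10.14 and 10.95 in controls 30, 74 and 75 and at 10.92, 10.46 and 10.97 in knockouts 72, 73 and 86. Controls 30 and 75 lay above knockout 73, and control 74 was the lowest. The difference was 0.16 (SE 0.25, 95% confidence interval -0.43 to 0.76; limma adjusted p = 0.739), and without control 74 it turned to -0.077. Its other probe set had 1 low array, control 74 at 5.91, and lay between 7.59 and 7.79 in the other 5 arrays.

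Fibrillin-2, the fibrillin best known from development, is encoded by Fbn2. Both its probe sets were below the filter. The first stood at 5.36, 4.46 and 5.19 in controls and at 4.84, 5.40 and 4.87 in knockouts, and the other at 6.13, 4.95 and 4.85 against 4.66, 6.15 and 4.47. The groups overlapped in both, with differences of 0.03 (SE 0.30) and -0.21 (SE 0.55). The table holds no detection calls, so these low values cannot be set apart from background.

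Over the 12 probe sets of these genes above the filter, 10 differed upwards, and the 2 that differed downwards were both of Fbln1. The share of all probe sets that differed upwards was not counted. Among all genes tested it was 42.9%, and probe sets of 1 gene are not independent. In 6 of the 12 every knockout array exceeded every control array, beside 12.7% of all probe sets above the filter. By probe set, 1 of the 12 passed, the brighter of Mfap5 (limma adjusted p = 0.0312), beside 1.32% called higher overall. The Mfap2 probe sets missed the threshold narrowly there, at adjusted p = 0.0654 and 0.0524. Eln, Fbln1, Mfap2, Mfap5 and Emilin1 each had 2 probe sets above the filter, and within each pair both pointed the same way. Fbln2 and Fbln5 had 1 each.

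**Figure D2:**
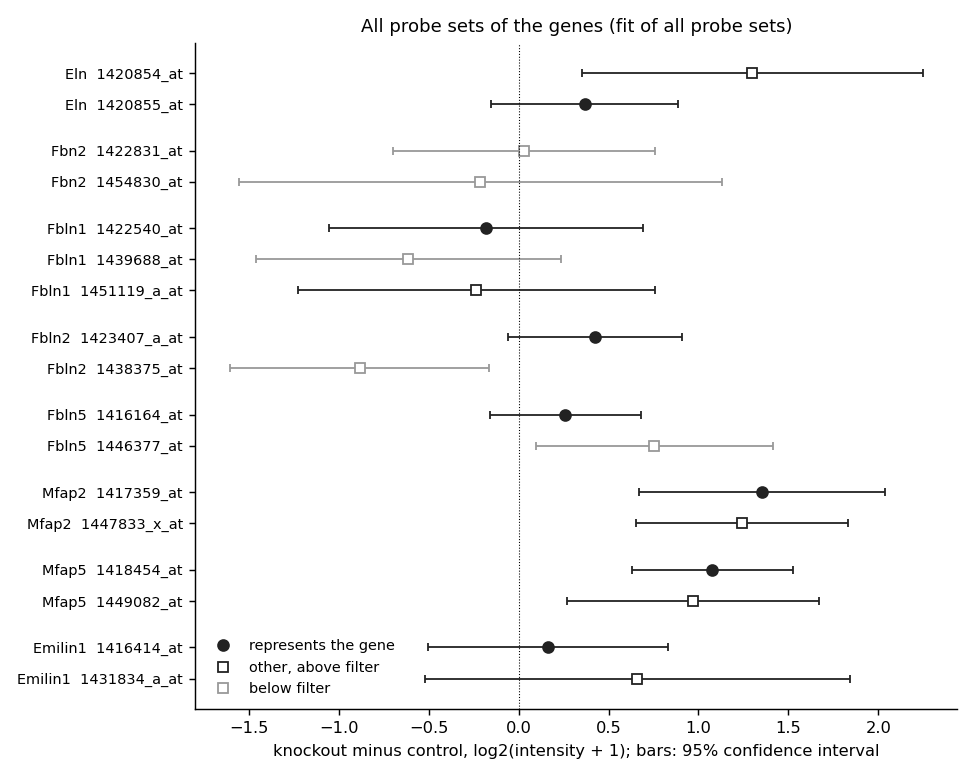
Knockout minus control difference on the log2(intensity + 1) scale, with 95% confidence intervals, for all 17 probe sets of the 8 matched genes, from a fit of all probe sets with no filter. Filled circles represent the gene, open black squares are other probe sets above the filter and grey squares lie below it; both probe sets of Mfap2 and of Mfap5 lie near 1 or above, the Eln pair stands at 0.37 and 1.30, and the Fbln2 pair lies on opposite sides of 0.

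The arrays were also read for other genes of the elastic fibre. Their lists were drawn up from general knowledge, but with earlier results of these data known, so counts on them are descriptions. Of 77 genes listed, 64 were tested, and 4 rose and 2 fell, which is read beside the 1.93% and 0.694% of all genes.

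Of the 7 latent TGF-beta binding proteins and ligands, 2 rose and 0 fell. Ltbp2, a fibrillin-binding protein that, unlike its relatives, is not known to bind latent TGF-beta, stood at 6.72, 7.67 and 7.46 in controls and 10.44, 10.51 and 10.13 in knockouts. It rose 8.44-fold (log2 difference 3.08, SE 0.26, limma adjusted p = 0.00303) and kept its call in all 6 fits of 5 arrays. The ligand Tgfb1 rose 2.34-fold (difference 1.23, SE 0.17, adjusted p = 0.0164), and lost its call without control 75 or any 1 knockout array and when its probe sets were averaged (0.72). The ligand Tgfb3 stood at -0.98, with every knockout array below every control array (adjusted p = 0.108, or 0.0204 with array weights). The latent TGF-beta binding proteins Ltbp1 and Ltbp4 stood at 0.57 and -0.38 (adjusted p = 0.297 and 0.351).

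Of the 4 lysyl oxidases tested, 0 passed limma's adjusted threshold and 2 had an unadjusted p under 0.05, beside 21.4% of all genes. All 4 lay above 0, beside 42.9% of all genes. Lox, the main elastin crosslinking enzyme, stood at 11.65, 11.39 and 10.69 in controls 30, 74 and 75 and at 12.02, 11.98 and 12.67 in knockouts 72, 73 and 86. The groups did not overlap, and knockout 86 was highest, as it was for Eln. The differences were 0.98 for Lox (limma adjusted p = 0.133), 0.59 for Loxl1 (adjusted p = 0.152) and 0.57 for Loxl4 (adjusted p = 0.299). With array weights Lox passed (adjusted p = 0.0465).

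Vcan encodes versican, a large proteoglycan that binds fibrillin. It was the 1 of 6 proteoglycans that rose, 2.51-fold, from 8.24, 7.73 and 7.59 in controls to 9.35, 8.93 and 9.26 in knockouts (difference 1.33, SE 0.21, limma adjusted p = 0.0285). The call was lost without any 1 array except control 30. The small leucine-rich proteoglycan Lum stood at 0.83 (adjusted p = 0.141) and its relative Dcn at 0.14 (adjusted p = 0.671; -0.011 without control 30). Hspg2, which encodes perlecan, stood at 0.21 (adjusted p = 0.472).

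Of 7 ADAMTS and ADAMTSL genes tied to microfibrils, 1 fell. Adamtsl4, whose product binds fibrillin-1, stood at 8.60, 8.60 and 8.48 in controls and at 7.87, 7.88 and 8.04 in knockouts. It fell by 0.63 on the log2 scale (SE 0.12, limma adjusted p = 0.0478), and in the fits of 5 arrays it did not pass (adjusted p 0.0765 to 0.189). Adamtsl1 stood at -1.55, Adamtsl3 at -0.41 and Thsd4 at 0.26 (adjusted p = 0.0961, 0.195 and 0.625).

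Among protease inhibitors, Timp1 rose and Timp4 fell. The metalloproteinase inhibitor Timp1 went from 6.97, 7.63 and 8.50 in controls 30, 74 and 75 to 11.78, 11.24 and 11.62 in knockouts, 14.4-fold (limma adjusted p = 0.00537). Timp4 went from 10.92, 10.27 and 11.03 to 9.17, 9.21 and 8.60 and fell by 1.75 on the log2 scale (adjusted p = 0.0229). Timp1 kept its call in all 6 fits of 5 arrays, and Timp4 only without control 74. The other inhibitors Cst3, Timp3 and Timp2 stood at -0.21, -0.17 and -0.13 (adjusted p = 0.472, 0.609 and 0.630). Among 7 elastolytic proteases 0 passed, beside a count of 4 at an unadjusted limma p under 0.05 (21.4% of all genes). The smallest p was that of Mmp9, a gelatinase that cleaves elastin, which had low signal at 6.87, 6.90 and 6.95 in controls and 6.34, 6.37 and 6.10 in knockouts. Every knockout array lay below every control array, and the difference was -0.64 (adjusted p = 0.0551, or 0.0199 with array weights). Ctsk stood at 1.31 and Ctss, a cathepsin abundant in macrophages, at 2.38 (adjusted p = 0.114 and 0.125; Ctss 0.0388 with array weights).

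The remaining lists held 9 other fibulin, emilin and MFAP genes, 3 elastin receptor complex genes, 9 integrin subunits and 7 chaperones or secretory genes. In each of these lists limma called 0. At an unadjusted p under 0.05 there were 2, 0, 4 and 5 genes, beside 21.4% of all genes. The 4 integrin subunits include the targeted Itgb1, which lay lower. In the first list both genes with an unadjusted p under 0.05 lay lower, without overlap. They were Mmrn2 and Mmrn1, endothelial relatives of Emilin1, at -0.43 and -0.36 (adjusted p = 0.132 and 0.196; Mmrn2 0.0361 with array weights). Mfap4, a further microfibril-associated protein, stood at 0.59 (adjusted p = 0.309). Of the elastin receptor complex, Glb1, Ctsa and Neu1 stood at 0.29, 0.32 and -0.21 (adjusted p = 0.472, 0.527 and 0.592). Itga5, whose product pairs with beta1 integrin, stood at 0.75 and Itgb5 at 0.47 (adjusted p = 0.0678 and 0.129; Itga5 0.0157 with array weights). The chaperone and secretory genes lay above 0 in 7 of 7, beside 42.9% of all genes, with a median of 0.52 beside -0.05. Among them P4hb stood at 0.52, Fkbp14 at 0.66 and Serpinh1 at 0.54 (limma adjusted p = 0.0883, 0.122 and 0.140). With array weights the adjusted p of P4hb was 0.0309.

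**Figure D3:**
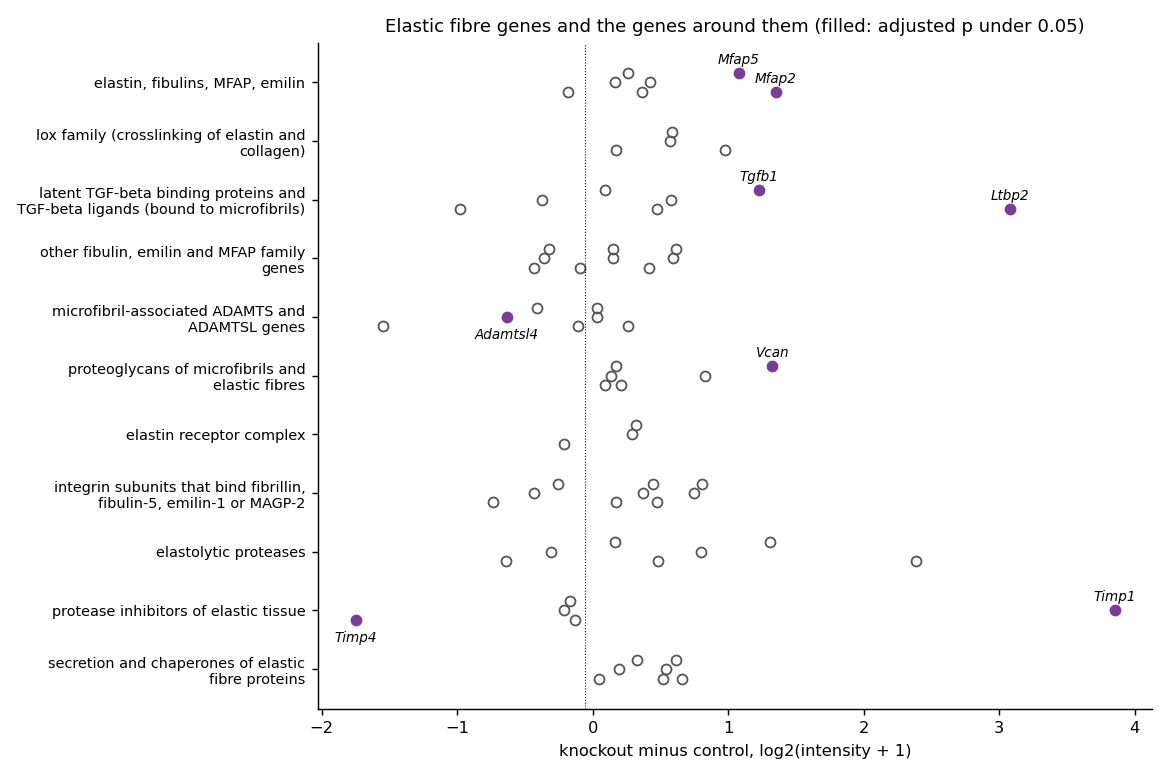
Knockout minus control difference on the log2(intensity + 1) scale for each tested gene of the elastic fibre genes (top row) and of the 10 lists around them, with genes past a limma adjusted p of 0.05 filled and named; the dotted line is the median of all genes, -0.05. Timp1 at 3.85 and Ltbp2 at 3.08 lie farthest to the right and Timp4 at -1.75 farthest to the left.

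Markers of other cell types moved with the groups as well. Macrophage markers summed to intensities of 3567 to 6384 in controls and 9073 to 30312 in knockouts, highest in knockout 73. Mfap2 was also highest there. Mfap5 was highest there only narrowly, at 11.39 beside 11.31 in knockout 72. All 10 macrophage markers lay above 0, beside 42.9% of all genes. Limma called 0 of these markers, beside 8 at an unadjusted p under 0.05 (21.4% of all genes). Schwann cell markers summed to 10217 to 13177 in controls and 5341 to 8726 in knockouts, without overlap. Endothelial markers summed to 21257 to 24353 in controls and 14503 to 20773 in knockouts, apart in the sum. All 8 lay below 0, and 4 of them lay lower without overlap. Limma called 0 of them, beside 4 at an unadjusted p under 0.05 (21.4% of all genes). Their mean log2 levels overlapped, with control 30 at 10.94 and knockout 73 at 11.07. Cell cycle genes summed to 2091 to 2373 and 8076 to 11169, with 7 of 9 called higher, beside 1.93% of all genes. Of those called, Cdk1, Birc5 and Plk1 lay below the filter level of 6.10 in every control array. They passed the filter only through the knockout arrays, so the count is only a description. The part of these shifts in the Mfap2 and Mfap5 results was not tested. The Mfap2 difference was 1.17 and that of Mfap5 1.02 without knockout 73.

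Adventitial fibroblasts are known to express Mfap5 strongly. Their 9 tested markers summed to 32713 to 44079 in controls and 37648 to 42784 in knockouts, so the groups overlapped in the sum. The median difference was 0.07, and limma called 0 of 9, beside 3 at an unadjusted p under 0.05 (21.4% of all genes). Those 3 went both ways, each without overlap. Lum and Pdgfra lay higher, at 0.83 and 0.75, and Gsn lower, at -0.32. Control 30 had the lowest sum of the fibroblast markers, and it was also the lowest control for Fbln1 and Mfap2. For Mfap5 it was lowest only narrowly, at 10.05 beside 10.10 in control 75. On the other Mfap5 probe set control 75 was the lowest, at 8.42. The macrophage sum was lowest in control 30 too, at 3567. Smooth muscle markers summed to 61651 to 81895 in controls and 54536 to 64556 in knockouts. All 9 lay below 0, whereas 42.9% of all genes lay above 0. Of these markers 0 passed limma's adjusted threshold, beside 3 at an unadjusted p under 0.05 (21.4% of all genes). White adipocyte markers were lowest in controls for control 30 and lowest in knockouts for knockout 86, at 22370 and 21129.

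**Figure D4:**
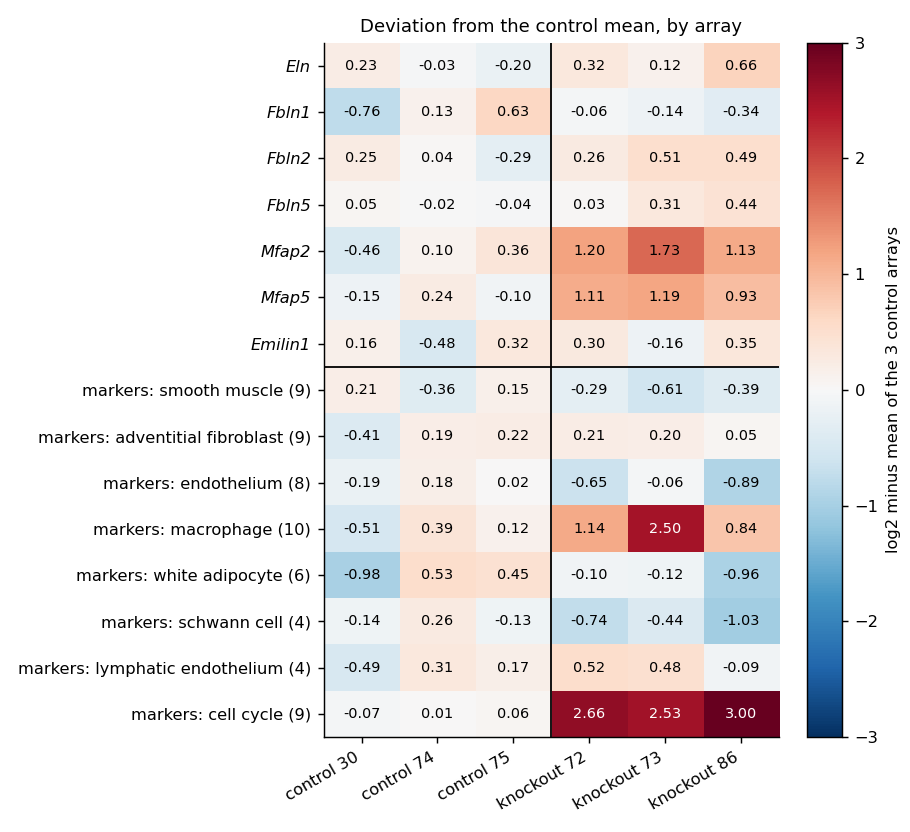
Deviation in log2 units from the mean of the 3 control arrays, by array, for the 7 genes and for the mean of each marker list with at least 4 tested genes (number in brackets); red is above and blue below the control mean. Mfap2 lies 1.13 to 1.73 and Mfap5 0.93 to 1.19 above in the knockouts, macrophage markers 0.84 to 2.50 above, and adventitial fibroblast markers 0.05 to 0.21 above.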

How the data were processed

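Total RNA of 6 mesenteric artery preparations was biotin-labelled and hybridised to Affymetrix arrays. The deposited values are linear intensities per probe set; the authors' summarisation and scaling are not given in the sources used here. Probe sets were named from the platform annotation of 2016, in which 34945 have 1 symbol, 932 several and 9160 none; the gene identifiers of all 17 probe sets described match the GRCm38.p6 gene table.

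Intensities were taken as log2(intensity + 1) and quantile normalized. Probe sets whose mean lay under the median of all probe sets, 6.10, were left out, and for each gene the remaining probe set of highest mean was used. Groups were compared with limma 3.58.1 (R 4.3.3), 2-sided, with Benjamini-Hochberg adjustment over 11378 genes, or over 19252 probe sets. Differences are knockout minus control. For genes of low signal their size is uncertain, and they may be understated. The procedure was tested on simulated data.

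The genes and lists were chosen with earlier results of these data known. The text names all members and, of each list, genes past the threshold and the 3 others, where there are as many, with the smallest p, plus Itgb1 and Tagln; marker genes are named where a result turns on them. With 3 arrays per group the number of arrays limits precision, and p-values measure the spread between mice. Alternatives were other filters, probe set rules, scalings, pseudocounts, priors and array weights, and each array left out.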

Additional observations from a re-analysis of the deposited data

How the results depend on the processing

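Of the 2 calls among the 7 genes, both were kept under the mean of probe sets, no normalization, a pseudocount of 16, the trended robust prior, array weights and a filter at the median of named probe sets, which was chosen after seeing the data. The count was 0 with no filter, 1 with the filter at the 70th percentile and 1 with median centring, and 0 to 1 with 1 array left out. The median difference of the 7 genes ran from 0.22 to 0.48 with 1 array left out. Over all genes, 299 calls became 174 with no filter, 166 with the 70th percentile filter, 1197 with array weights, 729 at an adjusted p under 0.1 and 47 to 279 with 1 array left out. The 6 calls on the lists became 3 with no filter, 14 with array weights and 2 to 4 with 1 array left out. Array weights, which were highest for knockout 72 (4.48, beside 0.39 to 1.63 in the other arrays), brought in Lox, Itga5, Ctss and P4hb as higher and Tgfb3, Mmrn2, Itgb1 and Mmp9 as lower. With median centring the split over all genes was 195 higher and 115 lower, beside 220 and 79. Turned in sign were Fbln1 without control 75 (range with 1 array left out -0.56 to 0.13), Emilin1 without control 74 (-0.077 to 0.33), Dcn without control 30 (-0.011 to 0.22) and Timp2 with averaged probe sets (0.31). The cause was not tested. No paired analysis was made, as the animal numbers are not shared between groups and the sample labels used here give no pairs. The table gives no background signal or detection calls, so dim probe sets such as those of Fbn2 have no stated limit of detection.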
